A study of Mus musculus with 16 samples.

Results

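The genes described here are 40 mouse genes of DNA replication and mitosis, a given list from Mki67 and Top2a to the MCM helicase subunits, measured by RNA sequencing of aorta. Each was read from the deposited gene table by splitting the gene names of every locus and keeping the locus with the highest mean FPKM (fragments scaled for transcript length and for library depth) over the 16 libraries. All 40 were found among 66889 loci that name a gene. The mice carried ApoE-/- in every group (written as "APOE knockdown" under genotype in the labels), and no wild-type group was used here. Feeding began at 8 weeks of age with a Western diet, a high-fat diet that drives plaque formation in such mice, or with a normal purified laboratory diet. It lasted 6 or 22 weeks, which gave 4 groups of 4 libraries: normal diet at 6 weeks, Western diet at 6 weeks, normal diet at 22 weeks and Western diet at 22 weeks. The labels call the normal-diet groups Sham and the Western-diet groups AS, and they do not say whether each library came from 1 animal, so p-values measure only the spread between these libraries. The animals were thus about 14 or 30 weeks old, and age, weeks on diet and the library codes in the labels, which differ between the 6-week and the 22-week sets, cannot be told apart.

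A dividing cell first loads MCM helicase onto replication origins, then copies its DNA, and then condenses, aligns and separates the chromosomes. The genes of the copying steps are switched on by E2F factors, which RB-family proteins hold back in resting cells, and the mitotic genes are switched on later by the MuvB complex with B-MYB and FOXM1, largely through promoter elements named CHR and CCAAT. Most cells of an adult artery rest, whereas plaque macrophages, smooth muscle cells in lesions, activated B cells and thymocytes in lymphoid tissue near the vessel can divide. Rag1 and Dntt, which recombine and extend antigen receptor genes in developing lymphocytes, were therefore set beside the members in each library.

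The members were expressed at low levels per length. The median of their mean FPKM was 0.957, and 21 of the 40 had a mean FPKM under 1. Nusap1, a spindle microtubule protein, stood highest at 9.94 FPKM, but its locus also carries the name Oip5os1, so that this value does not belong to Nusap1 alone. Pcna, the sliding clamp of DNA polymerase, followed at 9.92 FPKM, and the helicase subunit Mcm6 at 5.20 FPKM. The lowest was the spindle checkpoint kinase Bub1 at 0.183 FPKM. By role, the median of the mean FPKM was 1.56 for the 9 origin licensing and helicase genes, 1.27 for the 6 genes of DNA synthesis and nucleotide supply, 0.585 for the 8 cyclins and mitotic kinases, 0.682 for the 4 genes of the spindle checkpoint and anaphase-promoting complex, 0.542 for the 8 kinetochore, spindle and cytokinesis genes and 1.21 for the 5 chromatin and other proliferation genes. Mcm7, Top2a and Stmn1 shared their loci with small RNA gene names, and the loci read for the other 36 carried no other gene name. Of the members, 6 were named at 2 or more loci: Ezh2 at 11, and Prim1, Rrm1, Bub1b, Cenpf and Kif23 at 2. Only the locus with the highest mean FPKM was read for them.

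Promoters were read for the 33 members with an entry in the RefSeq table (build GRCm38.p6, from 250 bases before to 50 after each gene's start). Both strands were searched for the CHR element (TTTGAA or TTTAAA), for CCAAT and for E2F elements (TTTCCCGC, TTTGGCGC or GGCGGGAA). TTTCCCGC on one strand can overlap GGCGGGAA on the other, which leaves presence counts unaltered, and matches of different motifs shared bases in 1 member promoter. E2F elements were found in 9 of the 13 promoters of the replication roles (69.2%), in 0 of the 16 of the mitotic roles and in 3.31% of all 27025 promoters in the table. CHR elements showed the opposite split, with 14 of 16 mitotic promoters (87.5%), 3 of 13 replication promoters (23.1%) and 27.8% of all promoters. CCAAT was present in 84.8% of the member promoters and in 37.9% of all promoters. These are counts of letters in 300 bases, not of bound sites. The 4 promoters below show the 2 replication members and the 2 mitotic members that had the lowest p for time on the normal diet, the comparison in which most members passed. Nusap1, which had a lower p than both mitotic ones, is not shown because its locus is shared, and its RefSeq promoter held none of the 3 motifs. Capitals mark the matches.
Pola1 (DNA polymerase alpha, chrX:93632106-93632405, minus strand): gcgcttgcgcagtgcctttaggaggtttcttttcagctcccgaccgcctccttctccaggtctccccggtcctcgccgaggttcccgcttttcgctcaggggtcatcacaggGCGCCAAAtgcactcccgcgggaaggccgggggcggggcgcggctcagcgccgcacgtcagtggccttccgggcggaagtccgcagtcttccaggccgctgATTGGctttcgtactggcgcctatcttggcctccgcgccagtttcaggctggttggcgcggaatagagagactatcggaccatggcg
Cdt1 (origin licensing, chr8:122567765-122568064, plus strand): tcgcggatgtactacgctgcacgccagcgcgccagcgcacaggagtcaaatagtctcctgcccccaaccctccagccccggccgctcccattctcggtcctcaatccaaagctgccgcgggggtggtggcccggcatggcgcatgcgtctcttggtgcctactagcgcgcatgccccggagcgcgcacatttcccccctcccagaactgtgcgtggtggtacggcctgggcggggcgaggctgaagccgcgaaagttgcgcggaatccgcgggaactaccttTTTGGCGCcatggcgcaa
Plk1 (mitotic kinase, chr7:122159185-122159484, plus strand): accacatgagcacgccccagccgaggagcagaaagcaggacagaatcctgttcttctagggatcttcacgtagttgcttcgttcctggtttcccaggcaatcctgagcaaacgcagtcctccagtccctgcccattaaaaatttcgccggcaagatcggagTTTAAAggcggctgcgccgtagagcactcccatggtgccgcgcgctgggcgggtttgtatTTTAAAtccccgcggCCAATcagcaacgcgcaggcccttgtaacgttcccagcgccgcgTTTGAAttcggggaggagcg
Cdc20 (anaphase activator, chr4:118437294-118437593, minus strand): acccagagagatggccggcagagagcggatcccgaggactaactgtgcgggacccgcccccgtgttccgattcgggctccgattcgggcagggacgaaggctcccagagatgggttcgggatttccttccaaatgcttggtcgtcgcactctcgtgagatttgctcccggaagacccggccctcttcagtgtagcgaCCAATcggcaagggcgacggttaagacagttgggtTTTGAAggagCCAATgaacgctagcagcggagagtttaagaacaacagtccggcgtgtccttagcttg
Pola1 holds 1 E2F element, read on the other strand, and 1 CCAAT, while Cdt1 holds 1 E2F element beside its start. Plk1 holds 3 CHR elements and 1 CCAAT, and Cdc20 holds 1 CHR element and 2 CCAAT.

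Total estimated counts lay between 45253433 and 81397840 per library. The 8 smooth muscle markers were all found, with summed levels of 4450 to 13100 CPM (counts scaled to a common library total). A single library stood apart for lymphoid genes. Replicate 1 of the Western diet at 6 weeks had 1240 CPM summed over 17 thymocyte markers and 154 CPM over 7 thymic epithelium markers, against 53.1 to 529 CPM and 14.4 to 37.7 CPM in the other 15 libraries. Foxn1, the defining factor of thymic epithelium, was at 2.70 CPM there and at 0 in the other libraries of its group. B cell markers stood high elsewhere, at 306 CPM in replicate 4 and 115 CPM in replicate 3 of the normal diet at 22 weeks and at 201 CPM in replicate 2 of the normal diet at 6 weeks, over a range of 55.4 to 99.6 CPM in the other 13. The main results that rest on these libraries are also given without them.

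**Figure D1:**
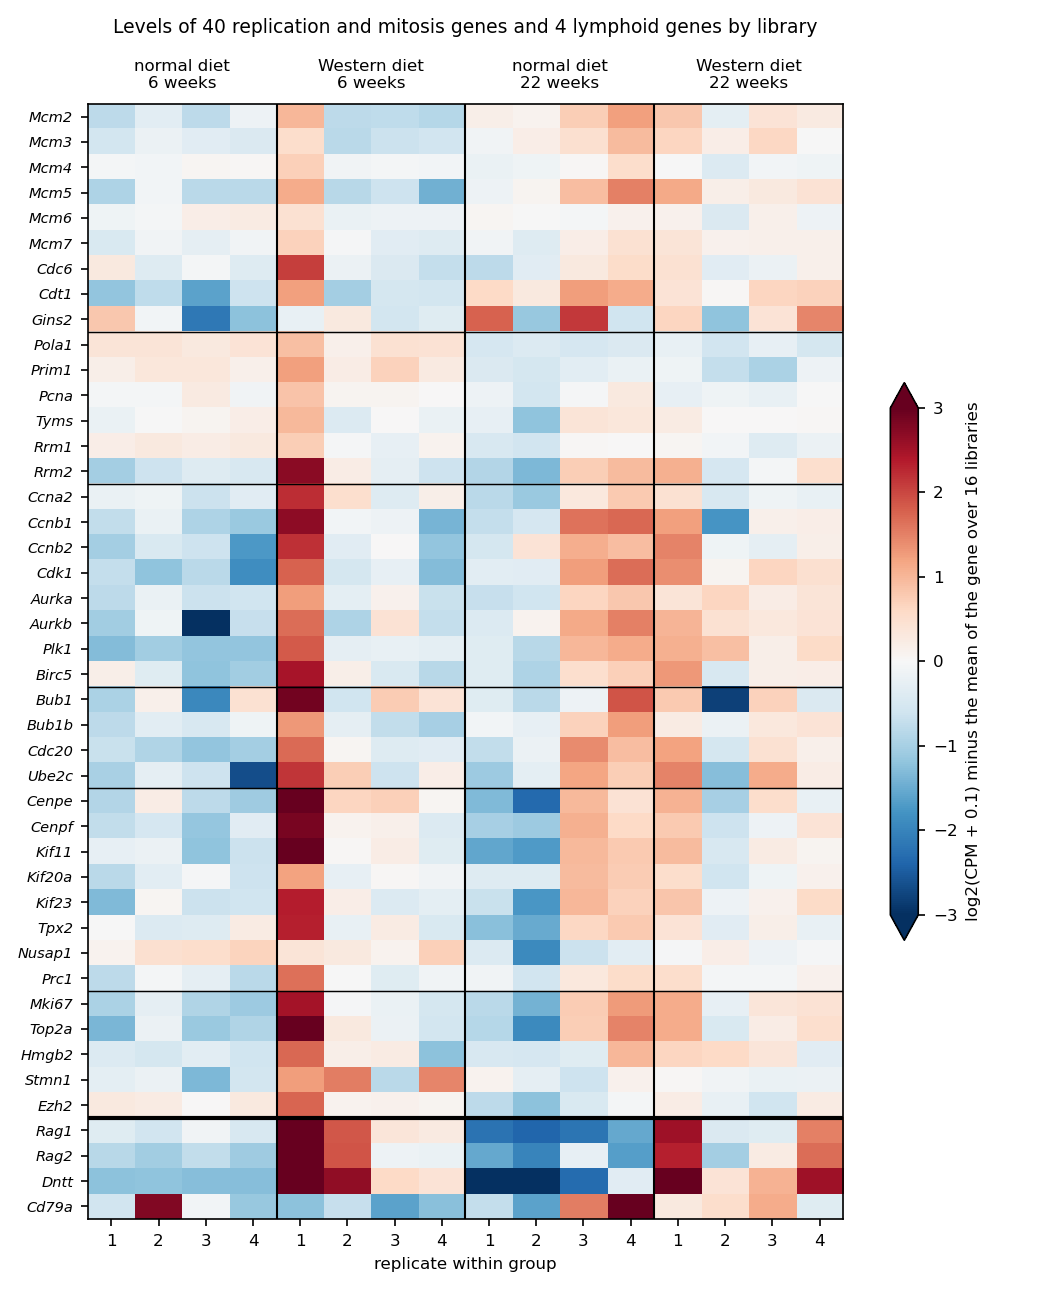
Level of each of the 40 members and of Rag1, Rag2, Dntt and Cd79a (rows, in the order of roles) in the 16 libraries (columns), as log2(CPM + 0.1) minus the mean of that gene over the libraries. Replicate 1 of the Western diet at 6 weeks was the highest of 16 libraries for 33 of the 40 members, and replicates 3 and 4 of the normal diet at 22 weeks were also high.

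Most members were high in the same few libraries. In whole aorta more dividing cells and more RNA per cell cannot be told apart. Replicate 1 of the Western diet at 6 weeks was the highest library of its group for 37 of 40 members, all but Gins2, Nusap1 and Stmn1, and the highest of all 16 for 33. It was the highest of 16 for 8.45% of all loci tested. Its level over the median of the other 3 libraries of its group had a median of 4.04-fold over the members, from 0.867-fold for Stmn1 to 10.3-fold for Top2a, the topoisomerase that untangles sister chromosomes. The excess was 5.67-fold in the median for kinetochore, spindle and cytokinesis genes, such as the spindle motor Kif11 at 8.68-fold, and 5.49-fold for cyclins and mitotic kinases, such as survivin (Birc5) at 8.33-fold and cyclin B1 (Ccnb1) at 7.77-fold. It was 2.26-fold for origin licensing and helicase genes and 1.83-fold for DNA synthesis and nucleotide supply, where the ribonucleotide reductase subunit Rrm2 reached 8.09-fold and its partner Rrm1 1.70-fold.

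The second pair of high libraries was in the normal-diet group at 22 weeks. Replicates 3 and 4 both lay above replicates 1 and 2 for 35 of the 40 members, as they did for 23.4% of all loci tested. Among the 15 libraries left when replicate 1 of the Western diet at 6 weeks is set aside, replicate 4 was the highest for 20 members and replicate 3 for 8. In the Western-diet group at 22 weeks, replicate 1 was the highest of its group for 32 members. The mean centred log2 level over the 40 members was taken as a value for each library. In replicates 1 to 4 it was -0.50, -0.21, -0.65 and -0.52 on the normal diet at 6 weeks. On the Western diet at 6 weeks it was 1.66, -0.06, -0.13 and -0.35. On the normal diet at 22 weeks it was -0.43, -0.70, 0.56 and 0.72, and on the Western diet at 22 weeks it was 0.64, -0.33, 0.13 and 0.16. The spread within groups was thus wide in every group but the normal diet at 6 weeks, with SDs of 0.928, 0.707 and 0.397 in the others and 0.185 in that one.

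Dntt and Rag1 moved with the members in some libraries and not in others. At 6 weeks Dntt was at 64.6, 11.8, 2.76 and 2.43 CPM in the Western-diet libraries and at 0.701, 0.720, 0.676 and 0.675 CPM in the normal-diet ones, so the groups did not overlap and replicate 1 was far above the rest. At 22 weeks it was at 19.4, 2.43, 3.81 and 11.0 CPM on the Western diet and at 0, 0, 0.280 and 1.39 CPM on the normal diet. Rag1, whose locus also carries the name B230118H07Rik, was at 317, 68.3, 24 and 22.7 CPM on the Western diet at 6 weeks. On the normal diet at 6 weeks it was at 14.5, 12.4, 17.3 and 13.3 CPM. At 22 weeks Rag1 was at 109, 13.9, 14.6 and 53.3 CPM on the Western diet and at 3.93, 3.52, 3.99 and 6.40 CPM on the normal diet. Rag1 and Dntt were both higher on the Western diet at each time without overlap, but neither passed: the adjusted p of edgeR's quasi-likelihood test was 0.172 and 0.147 at 6 weeks and 0.0881 and 0.132 at 22 weeks. DESeq2 called both at each time, with adjusted p of 0.0174 and 0.0183 at 6 weeks and 0.0022 and 0.029 at 22 weeks. At 22 weeks edgeR called Rag1 without the libraries high in Rag1 (adjusted p = 0.021) and Dntt without replicate 4 of the normal diet (adjusted p = 0.0432). The first fit left libraries out by the level of Rag1 itself, which kept only 13.9 and 14.6 CPM on the Western diet. The second left out the normal-diet library with the most Dntt. These calls thus add no support for a diet effect. From 6 to 22 weeks on the normal diet Rag1 was lower without overlap, at -1.68 ± 0.78 on the log2 scale, and did not pass (adjusted p = 0.0892, edgeR). Replicates 3 and 4 of the normal diet at 22 weeks were high for the members. They lay below every Western-diet library for Rag1 and Dntt, but were the highest of their own group for both. Summed thymocyte markers were at 103 and 261 CPM in replicates 3 and 4, against 53.1 and 60.8 CPM in replicates 1 and 2. The B cell receptor component Cd79a was at 7.67 and 21.3 CPM in replicates 3 and 4 and at 1.52 and 0.782 CPM in replicates 1 and 2. The T cell receptor component Cd3e was at 2.12 and 12.3 CPM against 0.637 and 1.01 CPM.

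**Figure D2:**
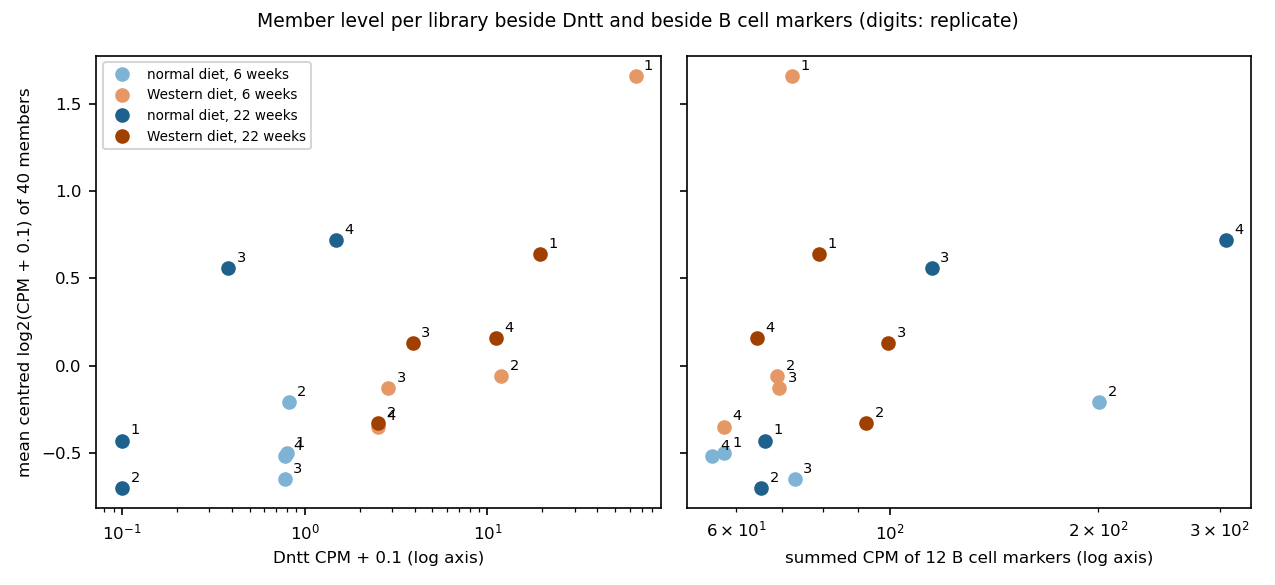
Mean centred log2(CPM + 0.1) of the 40 members per library (vertical axis) beside Dntt, as CPM + 0.1 (left, log axis), and beside the summed CPM of 12 B cell markers (right, log axis); digits are replicate numbers. Replicate 1 of the Western diet at 6 weeks is high for the members and for Dntt with B cell markers at 72.2 CPM, while replicates 3 and 4 of the normal diet at 22 weeks are high for the members with Dntt at 0.280 and 1.39 CPM and B cell markers at 115 and 306 CPM. Replicate 2 of the normal diet at 6 weeks has B cell markers at 201 CPM but a member level of only -0.21.

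The first comparison asked what the Western diet changed after 6 weeks. No member passed, and the higher group means of the mitotic genes rested largely on 1 library. Mki67, the antigen used to mark cycling cells, was at 6.60, 10.6, 6.80 and 6.00 CPM on the normal diet and at 72.1, 12.5, 11.1 and 8.88 CPM on the Western diet. Top2a was at 3.26, 7.48, 3.89 and 4.52 CPM on the normal diet and at 77.3, 10.5, 7.49 and 5.8 CPM on the Western diet. For both genes replicate 1 was far above every other library and the 2 groups overlapped. The log2 fold change was 1.80 ± 0.67 (SE, n = 4 and 4) for Mki67 and 2.40 ± 0.83 for Top2a, with adjusted p of 0.331 and 0.285 by edgeR. Cdk1, the kinase that drives entry into mitosis, was at 1.06, 0.720, 0.990 and 0.425 CPM on the normal diet and at 6.41, 1.22, 1.49 and 0.669 CPM on the Western diet, again with overlap.

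Plk1 and Cdc20 were the only members whose 2 groups did not overlap at 6 weeks, both with the Western diet higher, and 3.19% of all loci tested did the same. Plk1, a kinase of mitotic entry and spindle assembly (chr7:122159439-122169873), was at 0.605, 0.732, 0.660 and 0.662 CPM on the normal diet. On the Western diet it was at 6.12, 1.33, 1.39 and 1.30 CPM, so that replicates 2 to 4 also lay above every normal-diet library. Its log2 fold change was 1.93 ± 0.54 with an adjusted p of 0.185, and without replicate 1 it was 1.01 ± 0.40. Cdc20, which activates the anaphase-promoting complex (chr4:118432901-118437352), was at 1.32, 1.10, 0.891 and 1.02 CPM against 7.20, 2.25, 1.62 and 1.68 CPM. Its log2 fold change was 1.55 ± 0.55 (adjusted p = 0.301, edgeR), and 0.77 ± 0.47 without replicate 1. Stmn1, a microtubule destabilizer that many growing cells express, had a pattern of its own at its shared locus. It was at 3.74, 4.07, 1.73 and 3.10 CPM on the normal diet and at 11.0, 13.5, 2.56 and 12.7 CPM on the Western diet. Replicates 1, 2 and 4 were high and replicate 3 was low, and the log2 fold change was 1.65 ± 0.39 (adjusted p = 0.123, edgeR) with all libraries and 1.60 ± 0.43 without replicate 1.

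The log2 fold changes of the replication genes at 6 weeks had medians of 0.22 over 8 licensing and helicase genes and 0.28 over 5 genes of DNA synthesis and nucleotide supply, beside 1.76 over 3 cyclins and mitotic kinases. Without replicate 1 of the Western diet these medians were -0.16, 0.04 and 0.50. Differences between roles were not tested. Mcm2, a subunit of the replicative helicase, was at 4.87, 6.75, 4.82 and 7.57 CPM on the normal diet and at 16.8, 4.85, 4.90 and 4.61 CPM on the Western diet. Its log2 fold change was 0.38 ± 0.40, and -0.33 ± 0.29 without replicate 1. Pcna was at 27.4, 27.5, 34.6 and 26.8 CPM against 51.7, 30.4, 30.5 and 28.7 CPM, with a log2 fold change of 0.28 ± 0.19, and 0.04 ± 0.16 without replicate 1. Apart from replicate 1, the Western-diet values of Pcna lay inside the normal-diet range and those of Mcm2 at or near its lower end.

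Over the 16 libraries 24 of the 40 members reached an FPKM of 1 in 4 or more and were tested in every comparison, and the other 16, among them Cdk1, Ccnb1, Aurka, Aurkb, Bub1 and Kif11, were not. Counts over all 40 members include these 16, whereas shares of all loci tested do not. Of all 24091 loci tested 68 passed (0.282%) at an adjusted p under 0.05 in the quasi-likelihood test of edgeR, adjusted by Benjamini-Hochberg, and 0 of the 24 members did. At an unadjusted p under 0.05 there were 10 members, beside 10.7% of all loci. DESeq2 called 2 members higher, Plk1 and Stmn1, beside 1.91% of all loci, and limma on FPKM called 0. The median log2 fold change was 0.51 over the 24 members and 0.00 over all loci tested. With a lower count filter that kept all 40 members, again 0 passed (0.166% of the loci kept) and 20 had an unadjusted p under 0.05, beside 10.4% of the loci kept.

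Without replicate 1 of the Western diet at 6 weeks the median over the members was 0.07, again 0 of 24 passed beside 0.307% of all loci, and 2 had an unadjusted p under 0.05, beside 10.1%. The log2 fold change of Top2a was then 0.73 ± 0.60 and that of Mki67 0.53 ± 0.50. Without the 4 libraries of the Western diet whose Rag1 exceeded 43.7 CPM, which are replicates 1 and 2 at 6 weeks and 1 and 4 at 22 weeks, the median was 0.03. That fit also leaves out replicate 1 at 6 weeks, so it is no separate check. With the Rag1 level as a covariate the median was -0.09. Rag1 did not overlap between the diets at 6 weeks, so diet and covariate cannot be fully separated there. The summed thymocyte markers ranged from 125 to 1240 CPM on the Western diet and from 92.6 to 172 CPM on the normal diet, where the pre-T cell receptor gene Ptcra was at 0 in all 4 libraries.

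**Figure D3:**
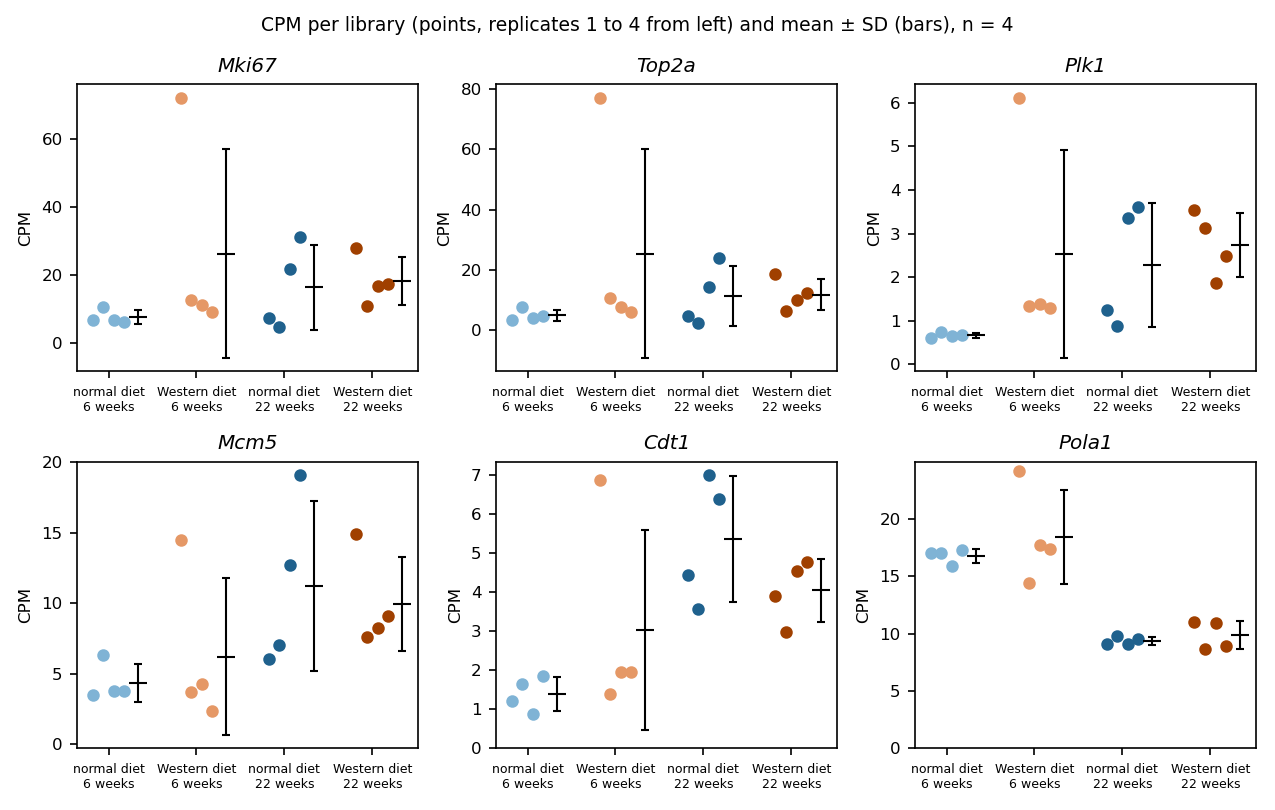
CPM of Mki67, Top2a, Plk1, Mcm5, Cdt1 and Pola1 in each library (points, replicates 1 to 4 from left to right within a group) with the group mean ± SD (bars, n = 4). Pola1 lies between 14.4 and 24.2 CPM at 6 weeks and between 8.70 and 11.0 CPM at 22 weeks, whereas the other 5 genes spread within groups, with replicate 1 of the Western diet at 6 weeks far above its group.

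At 22 weeks the second diet comparison again gave 0 of 24 members, beside 0.228% of all loci tested, by edgeR. DESeq2 also called 0 (3.44% of all loci), and 1 member had an unadjusted p under 0.05 beside 14.3% of all loci. The median log2 fold change of the members was -0.05, close to the -0.03 of all loci. Mki67 was at 7.25, 4.69, 21.8 and 31.2 CPM on the normal diet and at 27.8, 10.7, 16.6 and 17.3 CPM on the Western diet. Top2a was at 4.65, 2.21, 14.3 and 24 CPM against 18.5, 6.19, 9.90 and 12.1 CPM, and Cdk1 at 1.42, 1.40, 4.41 and 5.94 CPM against 4.92, 1.9, 2.89 and 2.56 CPM. For all 3 the normal diet held both the lowest libraries (1 and 2) and the highest one, so that every Western-diet value lay inside its range. The log2 fold changes were 0.16 ± 0.65 for Mki67 and 0.05 ± 0.79 for Top2a. Mcm2 was at 14.9, 6.86, 11.2 and 10.2 CPM on the Western diet, inside or below the 9.0 to 19.8 CPM of the normal diet. Pcna was at 25.6, 19.5, 27.9 and 35.2 CPM on the normal diet, and its 4 Western-diet values, from 24.2 to 28.3 CPM, lay inside that range.

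The 4 members with the lowest p at 22 weeks were Nusap1, Ezh2, Mcm4 and Cdt1. The Nusap1 locus was at 107, 37.5, 90.1 and 114 CPM on the normal diet and at 137, 163, 128 and 138 CPM on the Western diet. It was the single member without overlap (4.52% of all loci tested were likewise higher without overlap), with a log2 fold change of 0.70 ± 0.25 and an adjusted p of 0.220 by edgeR. Ezh2, the methyltransferase of Polycomb complex PRC2, was at 5.36, 3.87, 6.74 and 8.86 CPM against 10.8, 7.88, 6.04 and 10.9 CPM, which overlapped. Mcm4 and Cdt1 had log2 fold changes of -0.25 ± 0.20 and -0.40 ± 0.42. With the Rag1 level as a covariate the median over the members became -0.82, 13 of 24 had an unadjusted p under 0.05 beside 15% of all loci, and 0 passed (0.594% of all loci). Rag1 did not overlap between the diets at 22 weeks (3.52 to 6.4 CPM against 13.9 to 109 CPM). Diet and covariate thus cannot be fully separated, and these values are no measure of a diet effect. Without the 4 libraries whose Cd79a exceeded 5.51 CPM, an alternative chosen after seeing the data, the median became 0.48 and again 0 passed (1.78% of all loci). Those 4 were replicate 2 of the normal diet at 6 weeks, replicates 3 and 4 of the normal diet at 22 weeks and replicate 3 of the Western diet at 22 weeks.

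The longest list of changed members came from time on the normal diet, where 10 of 24 passed: 6 rose and 4 fell from 6 to 22 weeks. Time changed many loci: 46.7% of all loci tested passed, 24% higher and 22.6% lower, so the members' count lies near the background. Of the 8 tested licensing and helicase genes 4 rose and 0 fell, of the 5 tested genes of DNA synthesis and nucleotide supply 3 fell and 0 rose, and 1 of the 3 tested cyclins and mitotic kinases and 1 of the 2 tested checkpoint genes rose. The median log2 fold change was 0.97 for the first of these roles and -0.49 for the second.

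Among licensing genes, Cdt1, which loads the helicase onto origins (chr8:122568015-122573128), was at 1.21, 1.65, 0.874 and 1.85 CPM at 6 weeks, and its 22-week values were 4.44, 3.57, 7.01 and 6.38 CPM. Every library at 22 weeks lay above every library at 6 weeks, with a log2 fold change of 1.93 ± 0.44 (SE, n = 4 and 4; adjusted p = 0.0021, edgeR). Mcm5 (chr8:75109569-75128439) was at 3.48, 6.32, 3.78 and 3.79 CPM and then at 6.02, 7.04, 12.7 and 19.1 CPM, a log2 fold change of 1.37 ± 0.50 (adjusted p = 0.0348, edgeR). Its groups overlapped slightly, and the rise was mostly in replicates 3 and 4. Mcm2 (chr6:88883474-88898780) was at 4.82 to 7.57 CPM at 6 weeks and then at 9.57, 9.0, 14.2 and 19.8 CPM, without overlap, and the log2 fold change was 1.13 ± 0.41 (adjusted p = 0.0328, edgeR). Mcm3 (chr1:20802968-20820312) was at 6.21, 8.07, 7.26 and 6.77 CPM and then at 8.46, 10.6, 12.9 and 17.7 CPM, a log2 fold change of 0.81 ± 0.29 (adjusted p = 0.0307, edgeR). The other helicase subunits Mcm4, Mcm6 and Mcm7, which work in the same ring, had group means of 12.8, 31.6 and 14.1 CPM at 6 weeks and of 13.7, 30.5 and 17.4 CPM at 22 weeks, and none of them passed.

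Of the mitotic genes, Plk1 and Cdc20 rose. Plk1 was at 1.24, 0.874, 3.36 and 3.62 CPM at 22 weeks, all above the 0.605 to 0.732 CPM at 6 weeks, and its log2 fold change was 1.77 ± 0.54 (adjusted p = 0.0142, edgeR). Cdc20 was at 1.26, 1.91, 5.97 and 4.21 CPM at 22 weeks, which overlapped with 6 weeks through replicate 1, and its log2 fold change was 1.62 ± 0.55 (adjusted p = 0.0252, edgeR). In both genes replicates 3 and 4 carried most of the difference. Mki67 and Top2a, with log2 fold changes of 1.12 ± 0.66 and 1.24 ± 0.80, did not pass. Cdt1, Mcm2, Plk1 and Cdc20 reached an FPKM of 1 in only 6, 7, 5 and 6 libraries. Their mean FPKM on the normal diet was 0.373, 0.731, 0.254 and 0.489 at 6 weeks and 1.25, 1.39, 0.76 and 1.31 at 22 weeks. These genes thus entered the test through libraries other than those of the normal diet at 6 weeks, in which they were low. Mcm5 reached that FPKM in 10 libraries and Mcm3 in all 16.

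For the 4 members that fell, every library at 22 weeks lay below every library at 6 weeks. Pola1, the catalytic subunit of the polymerase that starts each new strand (chrX:93304767-93632155), was at 17, 17, 15.9 and 17.3 CPM at 6 weeks, and its 22-week values were 9.09, 9.78, 9.09 and 9.53 CPM. Its 2 groups were far apart beside their own spread, and the log2 fold change was -0.84 ± 0.14 (adjusted p = 0.000197, edgeR). Prim1, the primase subunit that lays the RNA primer for it (chr10:128015168-128030037), was at 4.69, 5.31, 5.31 and 4.65 CPM and then at 3.02, 2.85, 3.31 and 3.63 CPM. Its log2 fold change was -0.64 (adjusted p = 0.0372, edgeR), without overlap. Rrm1, the large subunit of ribonucleotide reductase, was at 27.5, 29.6, 28.2 and 29.6 CPM and then at 17.3, 16, 24.4 and 24.1 CPM, also without overlap, and its log2 fold change was -0.49 (adjusted p = 0.0471, edgeR). The Nusap1 locus was at 151, 198, 203 and 226 CPM at 6 weeks and no higher than 114 CPM at 22 weeks. It fell by 1.16 on the log2 scale (SE 0.26, adjusted p = 0.00176, edgeR). Over all 40 members, 5 were higher without overlap (Mcm2, Mcm3, Cdt1, Cdk1 and Plk1) and 5 were lower (Pola1, Prim1, Rrm1, Nusap1 and Ezh2), beside 22.1% and 21.9% of all loci tested. Cdk1 and the other members under the FPKM filter are in the first counts but not in these shares.

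The calls of the 6 members that rose were lost without the libraries high in Cd79a, a fit that leaves 2 libraries at 22 weeks and 3 at 6 weeks on the normal diet. Without the 4 libraries high in Cd79a, 3 of 24 members passed, beside 35.3% of all loci. These were Pola1, Rrm1 and the Nusap1 locus, all lower, and the median over the members was -0.08. The log2 fold change of Pola1 was then -0.83 ± 0.21. Prim1, at -0.73 ± 0.32, and Cdt1, at 1.60 ± 0.59, had values near those with all libraries but no longer passed (adjusted p of 0.0924 and 0.0551, edgeR). The other 5 that rose had lower values than before, with Mcm5 at 0.83 ± 0.61, Mcm2 at 0.69 ± 0.54, Mcm3 at 0.49 ± 0.36, Plk1 at 0.72 ± 0.63 and Cdc20 at 0.55 ± 0.68. Cdt1 lost its call in only 1 of 23 alternatives, the fit without the libraries high in Cd79a. Plk1 lost its call in 5 of 23, Cdc20 in 10, Mcm2 in 11, Mcm3 in 12 and Mcm5 in 13. On FPKM with limma, a scaling that lowers the median of all loci by 0.19, 5 members passed beside 50.5% of all loci, Cdt1 alone was higher, and 4252 of 12166 loci passing were higher against 5792 of 11247 by edgeR. Leaving out replicate 3 of the normal diet at 22 weeks gave 5 members beside 43.4% of all loci, and leaving out replicate 1, 3 or 4 at 6 weeks gave 6, 4 or 5 beside 41.4%, 42.6% or 42.4%. The summed B cell markers ranged from 55.4 to 201 CPM at 6 weeks, with 1 of the 12 at 0 in all 4 libraries, and from 65.2 to 306 CPM at 22 weeks. The macrophage markers were summed without Cd68, whose locus also carries the name of the translation factor Eif4a1. These 11 ranged from 367 to 663 CPM at 6 weeks and from 673 to 1280 CPM at 22 weeks, and their part was not tested.

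**Figure D4:**
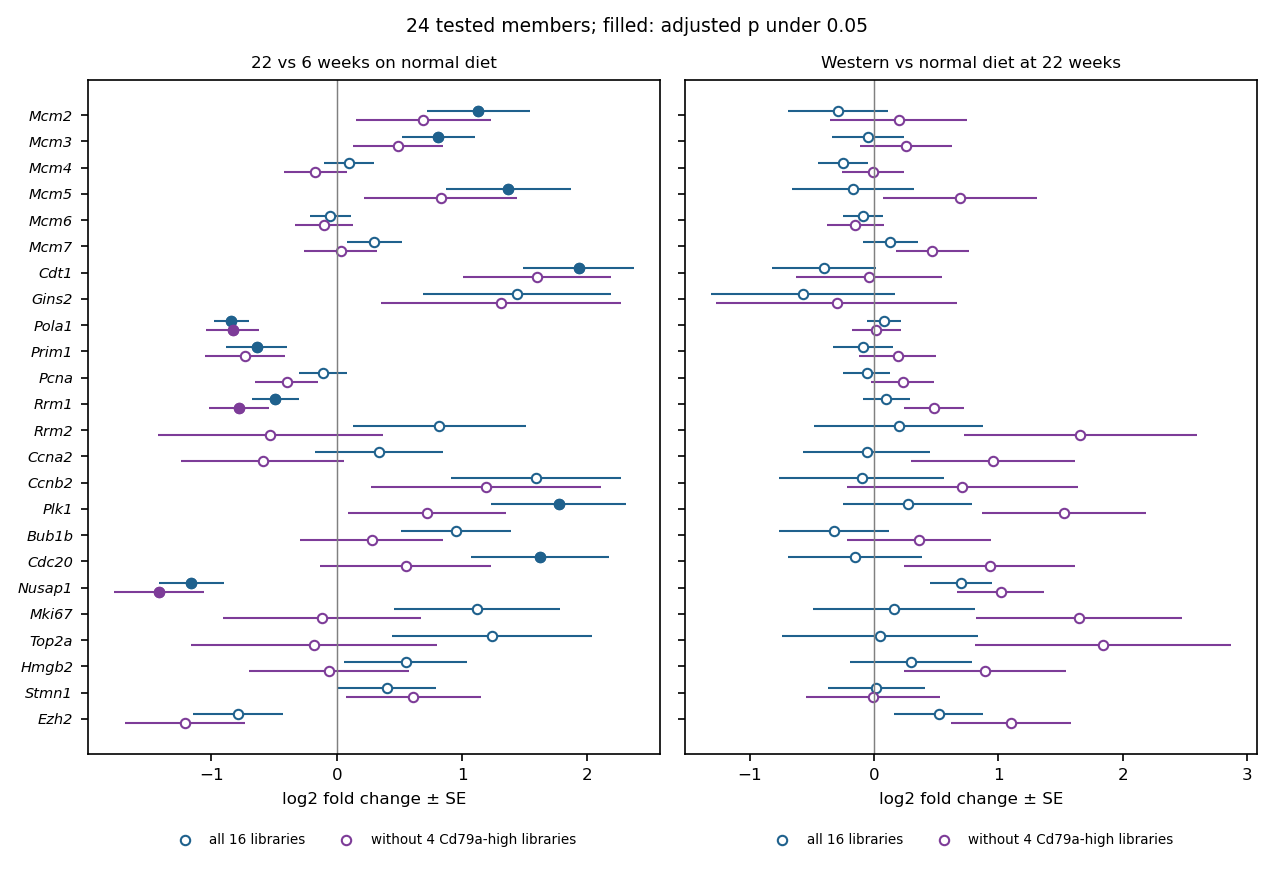
Log2 fold change ± SE of the 24 tested members for time on the normal diet (left) and for diet at 22 weeks (right), with all 16 libraries and without the 4 libraries high in Cd79a; filled points passed an adjusted p under 0.05. On the left 10 members passed with all libraries and 3 without those 4, and on the right 0 passed in either.

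Time on the Western diet gave 3 members, all lower, where 43.8% of all loci tested passed and 21.9% were lower. Pola1 was at 24.2, 14.4, 17.7 and 17.4 CPM at 6 weeks, and its 22-week values were 11.0, 8.70, 10.9 and 8.90 CPM, without overlap, and the log2 fold change was -0.90 ± 0.14 (adjusted p = 0.000121, edgeR). Prim1 was at 9.87, 4.82, 6.77 and 5.04 CPM and then at 3.79, 2.47, 2.09 and 3.70 CPM, also without overlap, and the log2 fold change was -1.13 ± 0.24 (adjusted p = 0.00132, edgeR). Pola1 and Prim1 were thus lower at 22 weeks on each diet. Both reached an FPKM of 1 in only 8 libraries. Mean FPKM on the normal and Western diets was 1.62 and 1.85 for Pola1 and 1.09 and 1.51 for Prim1 at 6 weeks. At 22 weeks it was 0.78 and 0.836 for Pola1 and 0.603 and 0.58 for Prim1. Both genes thus entered the test through the 6-week groups, where they are high. Pola2, the accessory subunit of the same polymerase and not a member, went the other way and is named here after its values were seen: its log2 fold change was 0.67 ± 0.19 on the normal diet and 0.51 ± 0.19 on the Western diet (adjusted p of 0.009 and 0.0376, edgeR). Stmn1 fell by 1.23 on the log2 scale (SE 0.39, adjusted p = 0.018, edgeR), from its 3 high libraries at 6 weeks to 4.65, 4.25, 3.96 and 4.06 CPM.

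Pcna was the third member without overlap on the Western diet, beside 20.4% of all loci tested that were lower without overlap. It was at 28.7 to 51.7 CPM at 6 weeks, and its 22-week values were 24.2, 26.4, 24.7 and 28.3 CPM, with a log2 fold change of -0.45 ± 0.19 and an adjusted p of 0.0725 by edgeR. Mki67, Top2a and Mcm2 had log2 fold changes of -0.53 ± 0.65, -1.11 ± 0.79 and 0.47 ± 0.40, and Rag1 and Dntt of -1.18 ± 0.76 and -1.15 ± 1.08, and none of them passed. Cdk1, not tested, ranged from 0.669 to 6.41 CPM at 6 weeks and from 1.9 to 4.92 CPM at 22 weeks. The median over the 24 members was -0.29, and -0.02 over all loci. On FPKM with limma, which lowers the median of all loci by 0.21, 6 members passed beside 48.7% of all loci, all lower, and 3669 of 11725 loci passing were higher against 5274 of 10561 by edgeR.

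The direction of the median here depended on 1 library. Without replicate 1 of the Western diet at 6 weeks, 8 members passed beside 40.1% of all loci, and 5 of them were higher: Cdt1 by 1.19 ± 0.30, Mcm2 by 1.17 ± 0.30, Mcm3 by 1.07 ± 0.23, Mcm5 by 1.52 ± 0.40 and the checkpoint kinase Bub1b by 0.87 ± 0.33 on the log2 scale. Pola1, Prim1 and Stmn1 were still lower, at -0.74 ± 0.12, -0.88 ± 0.21 and -1.18 ± 0.42, and the median over the members became 0.53. Mki67 and Top2a were then at 0.75 ± 0.51 and 0.56 ± 0.61. The median was 0.30 without the 4 libraries high in Rag1, which include replicate 1, and 0.38 with the Rag1 level as a covariate. In the fit without replicate 1, the 4 licensing and helicase genes among the 5 were those that passed on the normal diet. Of these 5, Cdt1, Mcm2 and Bub1b reached an FPKM of 1 in only 6, 7 and 6 libraries. The summed thymocyte markers ranged from 165 to 529 CPM at 22 weeks on the Western diet, below the 1240 CPM of the library left out, and the 11 macrophage markers without Cd68 from 1550 to 2030 CPM against 375 to 995 CPM at 6 weeks. Their part in these results was not tested.

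**Figure D5:**
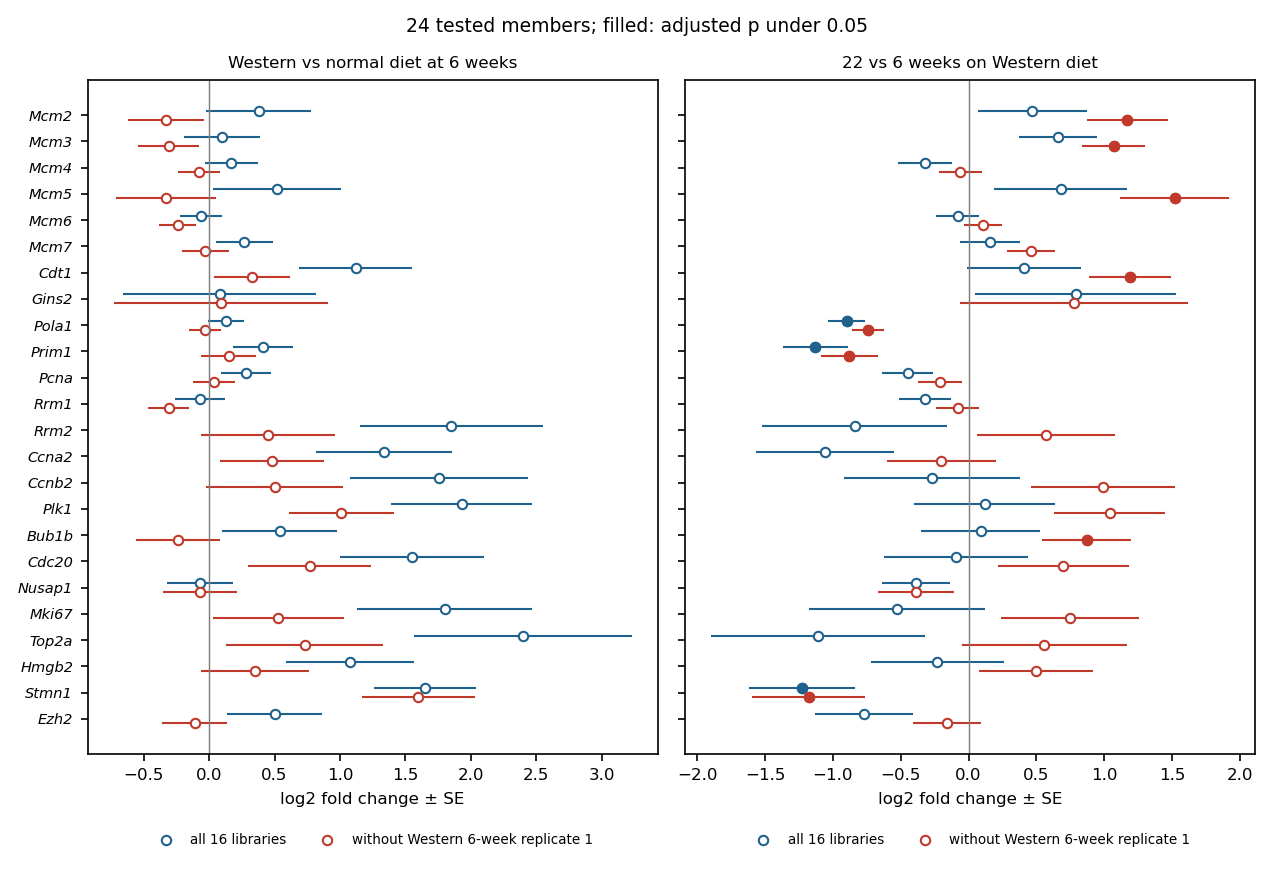
Log2 fold change ± SE of the 24 tested members for diet at 6 weeks (left) and for time on the Western diet (right), with all 16 libraries and without replicate 1 of the Western diet at 6 weeks; filled points passed an adjusted p under 0.05. The medians over the members move from 0.51 to 0.07 on the left and from -0.29 to 0.53 on the right.

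The difference of the diet effects, 22 weeks minus 6 weeks, was tested as an interaction. By edgeR 0 of 24 members passed beside 0.183% of all loci, 5 had an unadjusted p under 0.05 beside 12% of all loci, and DESeq2 called 0 (2.06% of all loci). The lowest p values belonged to Stmn1 at -1.63 ± 0.55, Cdt1 at -1.52 ± 0.60, Cdc20 at -1.71 ± 0.77 and Plk1 at -1.66 ± 0.74 on the log2 scale. Mki67 was at -1.64 ± 0.93, Top2a at -2.35 ± 1.13, Mcm2 at -0.66 ± 0.57, Pcna at -0.34 ± 0.27, Rag1 at 0.51 ± 1.07 and Dntt at -0.46 ± 1.61. The median over the members was -0.68 with all libraries and -0.13 without replicate 1 of the Western diet at 6 weeks.

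Other genes of the same pathways were read from lists outside the 40 members. On the normal diet 11 of 19 tested other replication genes passed from 6 to 22 weeks, 7 higher and 4 lower. Pold1, the catalytic subunit of polymerase delta, rose by 1.34 ± 0.18 on the log2 scale and Dut, which clears dUTP, by 1.02 ± 0.20. The locus of Pole2, a subunit of polymerase epsilon, fell by 0.74, but it also carries the names Rpl36al and Dnaaf2 and its value does not belong to Pole2 alone. Cyclin E2 (Ccne2), which drives entry into S phase, fell by 1.55. Of 8 tested other mitosis genes securin (Pttg1) fell by 1.44 on the log2 scale and Incenp, of the chromosomal passenger complex, rose by 0.96. These shares lie on both sides of the 46.7% of all loci.

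Regulators of the cycle were read in the same way, beside the 46.7% of all loci that passed on the normal diet. Of 12 tested E2F, MYB and FOXM1 regulators 5 passed (41.7%), with E2f1 higher by 2.0 ± 0.24 and Rb1, Lin54 and Rbl2, members of the repressive RB and MuvB complexes, lower by log2 fold changes of -1.33 ± 0.11, -0.76 ± 0.14 and -0.32 ± 0.08. Of 14 tested CDK inhibitors and arrest genes 12 passed (85.7%), 10 of them higher. Cdkn2b, an inhibitor of CDK4 and CDK6, rose by 1.85 ± 0.20, the stress gene Gadd45g by 1.88 ± 0.28 and Cdkn1c, an inhibitor of cyclin E and A kinases, by 0.96 ± 0.15, while cyclin G1 (Ccng1), a p53 target, fell by 1.11 on the log2 scale. Of 7 tested G1 cyclins and kinases 2 passed (28.6%): cyclin D1 (Ccnd1) rose by 0.65 ± 0.15 and Ccne2, which is on both lists, fell.

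On the Western diet 43.8% of all loci passed with time, 21.9% in each direction, and several of the following counts lie near that share. Of the 19 other replication genes 6 passed, 2 higher and 4 lower, and 3 of the 8 other mitosis genes, all lower: Pttg1 by a log2 fold change of -1.02 ± 0.13, Smc2 of condensin by -0.85 ± 0.31 and anillin (Anln) of the cleavage furrow by -0.60 ± 0.18. E2f1 rose by 1.41 ± 0.23 and Rb1 fell by 1.0 on the log2 scale, with 5 of 12 regulators passing. Of the 7 G1 genes 5 passed, with Ccnd1 higher by 0.90 ± 0.15, Cdk6 by 1.19 ± 0.32 and Cdk2 by 0.52 ± 0.17. Of the 14 arrest genes 7 passed, 5 higher, among them Gadd45a by 1.28 ± 0.19, Cdkn2b by 1.16 ± 0.19 and Cdkn1c by 0.92 ± 0.14. Between the diets a single gene of these 5 lists passed: Cdkn2b was higher by 1.19 ± 0.19 on the Western diet at 6 weeks (adjusted p = 0.0147, edgeR). At 22 weeks 0 of the lists' genes passed, and the lowest p belonged to Ccng1 at 0.47 ± 0.12 on the log2 scale and an adjusted p of 0.0893 by edgeR.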

How the data were processed

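RNA was sequenced from 16 aorta libraries. The submitters' processing notes name cutadapt 1.9, FastQC and the build GRCm38. The sources used here do not give the aligner, the counter or the annotation. The authors deposited 1 gene table of 70603 loci with an FPKM and an estimated count per library. The deposited FPKM is 0.0001 where the count is 0. The estimated counts are whole numbers that pile up at 4 (35277 values, against 14716 at 3 and 9394 at 5). How they were estimated is not stated, so no counting intervals are given. Loci that name no gene took up 0.606% of all counts and were not used.

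Groups were taken from the sample titles, and the 40 members and all gene lists were chosen with earlier results of these data known. Loci that reached an FPKM of 1 in 4 or more libraries were tested on the counts with edgeR 4.0.16 (R 4.3.3): TMM scaling, 4 group means, quasi-likelihood test, two-sided, Benjamini-Hochberg adjustment over all 24091 loci, threshold 0.05. The test was tried on simulated data. CPM are counts scaled by TMM to a common library total. Alternatives used DESeq2 1.42.0, limma 3.58.1 on log2(FPKM + 0.1, 0.5 or 1), other filters, RLE scaling, counts divided by 4, counts summed over loci, a replicate block, Rag1 as a covariate and libraries left out. In each comparison the named members were those passing (up to 8 by lowest p) or, where fewer than 4 passed, the 4 with the lowest p, with Mki67, Top2a, Cdk1, Mcm2, Pcna, Rag1 and Dntt also given (Cdk1 as levels only, since it was not tested); of each other list up to 4 passing genes, or the 2 with the lowest p, could be named. Other members given with a value illustrate a range or a role, and Pola2 was named after its values were seen.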

Additional observations from a re-analysis of the deposited data

Results flagged for a closer look

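Levels of 18 genes were screened in the 4 groups for a library far from the other 3 of its group (72 values on the log2(CPM + 0.1) scale), and 9 stood apart. Chance alone gives about 1 in 20 for independent values. The members moved together by library and many were named for a low p in these same data, so the flags cannot be set against that rate. In 6 of the 9 the library was replicate 1 of the Western diet at 6 weeks, with Mki67 at 72.1 CPM, Plk1 at 6.12 CPM, Ezh2 at 31.1 CPM, Mcm4 at 21.4 CPM, Mcm2 at 16.8 CPM and Pcna at 51.7 CPM. Stmn1 was low in replicate 3 of the same group at 2.56 CPM. On the normal diet at 6 weeks Mcm5 was high in replicate 2 at 6.32 CPM, the library with the most Cd79a of its group, and Pcna was high in replicate 3 at 34.6 CPM.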

How the results depend on the processing

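The number of members passing for diet at 6 weeks was 0 in every alternative except DESeq2, with 2, and the fit without replicate 3 of the Western diet at 6 weeks (0 to 1 with 1 library of the groups compared left out). For diet at 22 weeks and for the difference of the diet effects it was 0 in every alternative run. For time on the normal diet it was 5, 6 and 5 with limma on log2(FPKM + 0.5, 0.1 and 1), 3 without the libraries high in Cd79a, 6 without those high in Rag1 or Cd79a, and 4 to 9 with 1 library left out. For time on the Western diet it was 6, 6 and 7 with limma, 6 with Rag1 as a covariate, and 2 to 8 with 1 library left out.

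The median over the members for time on the normal diet was 0.16 with limma on log2(FPKM + 1), -0.08 without the libraries high in Cd79a and -0.09 without those high in either gene, and 0.36 to 0.82 with 1 library left out. For time on the Western diet it was -0.41 to 0.53 with 1 library left out. For diet at 22 weeks it was -0.82 with Rag1 as a covariate, whose level did not overlap between the diets. For the difference of the diet effects it was 0.18 without the libraries high in either gene. With 1 library left out it was 0.07 to 0.73 for diet at 6 weeks, -0.15 to 0.15 for diet at 22 weeks and -0.90 to -0.13 for the difference.

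Counts over all loci moved most where few passed. For diet at 6 weeks the 68 loci became 459 with DESeq2, 108 with limma on log2(FPKM + 1), 28 with the replicate block, 5 with Rag1 as a covariate, 5 without the libraries high in Rag1, 29 without those high in Cd79a, 1 without both kinds, and 30 to 74 with 1 library left out. For diet at 22 weeks the 55 loci became 828 with DESeq2, 146, 140 and 147 with limma at 0.5, 0.1 and 1, 12 with no filter, 25 with filterByExpr, 0 with the 2 groups alone, 26 with the replicate block, 143 with Rag1 as a covariate, 428 without the libraries high in Cd79a, 1186 without both kinds, and 0 to 429 with 1 library left out. For the difference the 44 loci became 497 with DESeq2, 26 with limma at 0.1, 26 with no filter, 16 with filterByExpr, 0 with the replicate block, 69 with Rag1 as a covariate, 4 without the libraries high in Rag1, 9 without those high in Cd79a, 459 without both kinds, and 3 to 74 with 1 library left out. For time on the Western diet 6010 passed without the libraries high in Rag1 and 4378 without both kinds, with fewer libraries in the fit, and 9538 to 10094 with 1 library left out; on the normal diet it was 9982 to 10550. The difference of the diet effects on Dntt turned from -0.46 to 8.35 without both kinds, where the 2 normal-diet libraries left at 22 weeks were at 0 and the fitted value is no measure of size. The causes of these shifts were not tested. Leaving out libraries by Cd79a was chosen after seeing the data.

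Replicate numbers gave no sign of pairing, though this check cannot exclude it. Libraries of different groups had correlations in their deviations of -0.20 to 0.12 with the same number and -0.17 to 0.24 with different numbers. With the replicate block 0, 0, 9, 3 and 0 members passed for diet at 6 weeks, diet at 22 weeks, time on the normal diet, time on the Western diet and the difference. Of the tests of single genes under all alternatives, 746 kept their call, 57 lost it, 21 gained one and 1 reversed. The reversed one was the difference of the diet effects on Dntt given above. Kept calls include tests that did not pass in either fit. Low levels limit what could be seen, since 16 members were not tested at the FPKM filter used in the report.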
